A study of Mus musculus with 9 samples.

Results

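The G1 cyclins and CDK inhibitors examined here are 10 genes of the cell cycle machinery that decides entry into S phase. They are *Ccnd1*, *Ccnd2*, *Ccnd3*, *Ccne1*, *Ccne2*, *Cdkn1b*, *Cdkn2a*, *Cdkn2b*, *Cdkn2c* and *Rb1*, picked by name out of 54232 genes in the count table, with earlier results of these data known. All 10 were present in the table and all 10 passed the filter on low counts in each comparison. RNA was measured in mouse naïve embryonic stem cells (mESCs), kept in serum and LIF (S/L medium), and in primed epiblast stem cells (mEpiSCs). The primed cells were converted from the naïve ones in Fgf2 and Activin A (F/A medium). Both were sampled at passage 5 (P5) and passage 15 (P15), 2 libraries being made per state and passage, and both grew on feeder layers of mouse embryonic fibroblasts (MEFs) inactivated with mitomycin C. A further single library came from MEFs. All groups carry the C57 x CBA background, and the naïve line carries a GFP reporter driven by the distal *Oct4* promoter. The labels name replicates without saying whether they were separate cultures, so p-values measure only the spread between these libraries. Whether feeders were removed before RNA extraction, and whether the MEF library came from inactivated cells, is not given in the sources used here.

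In a dividing cell, D cyclins bind CDK4 and CDK6 and E cyclins bind CDK2, and these kinases phosphorylate the retinoblastoma protein RB1, which then releases E2F transcription factors that switch on genes for DNA synthesis. INK4 inhibitors (the products of *Cdkn2a*, *Cdkn2b*, *Cdkn2c* and *Cdkn2d*) block CDK4 and CDK6, whereas the Cip/Kip inhibitors (from *Cdkn1a*, *Cdkn1b* and *Cdkn1c*) act chiefly on cyclin-CDK2 complexes. Naïve mESCs are known for a short G1 phase, high cyclin E and little INK4 inhibitor, and G1 lengthens as pluripotent cells leave the naïve state. The comparisons below ask how the transcripts of this machinery differ between the states and with passage. They measure mRNA, not protein or kinase activity.

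The sequences upstream of *Ccne1* and *Cdkn2b*, the 2 members with the widest range of group means, are shown with those of *Cdkn2a*, the neighbour of *Cdkn2b*. Each is the upstream part of a RefSeq promoter window in GRCm38.p6, read on the minus strand, and bases that GENCODE M21 places in an exon of the gene were left out. Capitals mark letters that match an E2F motif (searched as TTCCCGC, then as TTGGCGC, then as TTCGCGC and then as TTGCCGC), an E-box (CACGTG) or a SMAD motif (CAGAC) on either strand.
Ccne1, chr7:38107535-38107740: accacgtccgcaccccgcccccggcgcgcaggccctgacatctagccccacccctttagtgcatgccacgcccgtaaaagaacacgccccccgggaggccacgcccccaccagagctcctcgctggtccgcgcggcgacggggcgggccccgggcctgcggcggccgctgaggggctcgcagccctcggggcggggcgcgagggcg
Cdkn2b, chr4:89311040-89311282: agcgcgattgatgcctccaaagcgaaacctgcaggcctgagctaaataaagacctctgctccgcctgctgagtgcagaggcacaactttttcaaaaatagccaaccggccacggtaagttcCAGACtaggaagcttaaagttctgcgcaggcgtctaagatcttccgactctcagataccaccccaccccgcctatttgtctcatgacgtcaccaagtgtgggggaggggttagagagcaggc
Cdkn2a, upstream start, chr4:89294654-89294869: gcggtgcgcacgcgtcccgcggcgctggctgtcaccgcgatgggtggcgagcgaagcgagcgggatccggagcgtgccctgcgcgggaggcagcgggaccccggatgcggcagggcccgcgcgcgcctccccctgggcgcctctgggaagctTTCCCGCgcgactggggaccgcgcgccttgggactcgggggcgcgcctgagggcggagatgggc
Cdkn2a, downstream start, chr4:89282193-89282442: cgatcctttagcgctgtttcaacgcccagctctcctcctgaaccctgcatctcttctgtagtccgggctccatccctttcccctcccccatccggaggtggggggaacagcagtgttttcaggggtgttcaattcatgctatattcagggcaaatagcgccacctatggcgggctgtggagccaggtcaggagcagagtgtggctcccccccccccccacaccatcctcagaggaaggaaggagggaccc

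The stretches differ in base composition, with 78.2% G or C for *Ccne1*, 78.7% for the upstream *Cdkn2a* start, 60.0% for its downstream start and 53.5% for *Cdkn2b*. *Cdkn2b* begins 16.4 kb upstream of the first *Cdkn2a* start, and the *Cdkn2a* starts lie 12.4 kb apart. The upstream *Cdkn2a* window held 1 E2F match and the *Cdkn2b* window 1 SMAD motif, while the *Ccne1* window held none of the letters searched. Over 32817 RefSeq windows of 250 bases, 7.89% held an E2F match, 6.02% an E-box and 42.2% a SMAD motif. Such a match describes the letters of the window and is not evidence of binding. *Cdkn2c*, *Cdkn1b* and *Ccnd3* also had windows, so that 6 of the 10 members had a window, and *Ccnd1*, *Ccnd2*, *Ccne2* and *Rb1* did not. The *Ccnd3* windows held 2 SMAD motifs, those of *Cdkn2c* 1 SMAD motif and 1 E2F match, and that of *Cdkn1b* none of the letters searched.

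Total counts were 14378051 to 20985136 per naïve or primed library and 25646547 for MEFs. Levels are in CPM, that is, counts relative to a library size corrected by TMM over all 9 libraries. No count at all in such a library leaves room for a level of up to 0.148 to 0.221 CPM, a limit of 3 counts that covers counting error only. The labels fitted the marker genes, since all 7 naïve markers were lower and all 7 primed markers higher in primed cells at each passage. The 3 markers of both pluripotent states (*Pou5f1*, *Sox2* and *Nanog*) were all lower in primed cells at each passage. From primed P5 to primed P15, 2 of these 3 were higher and 1 lower. Mean *Pou5f1* was 712 CPM in naïve P5, 211 in primed P5, 756.5 in naïve P15 and 598 in primed P15. For *Sox2*, the primed means were 163 CPM at P5 and 145.5 at P15. In primed cells 6 of the 7 naïve markers were lower at P15 than at P5. *Zfp42*, a naïve marker, was at 17.6 and 16.97 CPM in primed P5 and at 0.230 and 0.227 CPM in primed P15. None of 30 fibroblast markers was at 0 in any naïve or primed library. Their median level relative to the MEF library was 17.2% and 17.6% in naïve P5, 14.96% and 14.1% in primed P5, 20.7% and 22.4% in naïve P15, and 24.5% and 24.0% in primed P15. The summed marker level was 14.3% of that in MEFs in both naïve P5 libraries, 7.69% and 7.55% in primed P5, 22.3% and 23.4% in naïve P15, and 17.6% and 17.1% in primed P15. Single markers ranged from 5.77% to 135% of the MEF level in naïve and from 2.51% to 1304% in primed libraries.

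Primed cells at P5 had less *Ccne1* and less of each D cyclin transcript than naïve cells, and more *Cdkn2b*, *Cdkn2a* and *Cdkn1b*. Of the 10 members, 3 were higher and 4 lower at an adjusted p under 0.01 (the quasi-likelihood test of edgeR, with p-values adjusted by Benjamini-Hochberg over 16482 genes), against 31.2% of all genes tested called higher and 31.1% lower. *Ccne2*, *Cdkn2c* and *Rb1* were not called. At P15, 4 members were higher and 3 lower, where 28.2% of 15733 genes were called higher and 28.4% lower. The directions of the members called matched those at P5 except for *Ccnd1*, which was then higher in primed cells. *Rb1*, which was called at neither passage, also changed sign. The median log2 fold change of the 10 members was −0.08 at P5 and −0.04 at P15, beside 0.0078 and −0.0039 over all genes tested. In such bulk RNA, fewer cells of a type and less RNA per cell cannot be told apart.

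**Figure D1:**
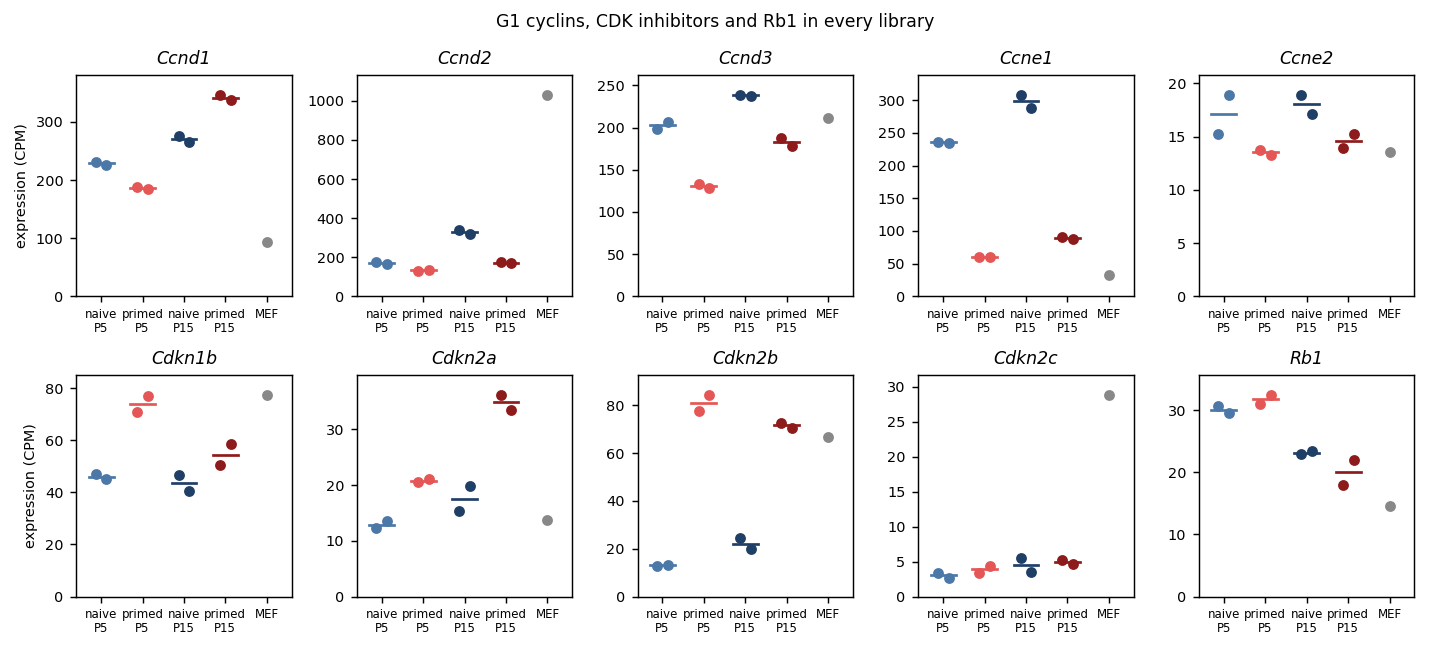
Expression in CPM (linear axes from 0) of the 10 genes in every library, with dots for libraries and bars for the mean of the 2 libraries of a group. *Ccne1* was near 235 CPM in naïve P5 and 60 CPM in primed P5, and *Cdkn2b* rose from about 13 to 81 CPM, while *Ccnd2* and *Cdkn2c* were highest in the single MEF library.

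*Ccnd1* encodes cyclin D1, which couples growth signals to CDK4 and CDK6. It was at 231 and 226 CPM in naïve P5, 189 and 184 in primed P5, 275 and 266 in naïve P15, and 347 and 337 in primed P15. Primed libraries were thus below the naïve ones at P5 and above them at P15, with no overlap. The primed-minus-naïve log2 difference was −0.26 ± 0.04 (SE, edgeR adjusted p = 3.81e-07) at P5 and 0.33 ± 0.06 (adjusted p = 4.95e-06) at P15. With library size alone as the scaling, which moved the median of all genes at P5 to 0.21, the P5 difference was −0.06 and was not called (adjusted p = 0.142). *Ccnd1* shares 1100 exon bases with *LTO1* on the opposite strand, which had 153 to 484 counts per library, and a kit that does not mark strand cannot separate them.

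*Ccnd2* encodes cyclin D2. It was at 176 and 168 CPM in naïve P5, 131 and 133 in primed P5, 337 and 319 in naïve P15, and 174 and 171 in primed P15, so that naïve P15 stood above the other 3 pluripotent groups. The difference was −0.35 ± 0.04 (edgeR adjusted p = 1.42e-08) at P5 and −0.94 ± 0.06 (adjusted p = 1.51e-16) at P15. *Ccnd2* was at 1032 CPM in MEFs, and its level in the naïve and primed groups was 12.8% to 31.8% of that, which lies around the median share of the fibroblast markers. In primed cells, 8 of those 30 markers were called higher and 17 lower at P5, and 14 higher and 10 lower at P15. Feeder RNA at that median share would amount to 101% to 145% of the *Ccnd2* level in every naïve P5, primed P5 and primed P15 library and to 63.3% and 72.4% in naïve P15. With the lowest marker share taken off, the P5 difference was −0.13 and was no longer called (adjusted p = 0.0219). At P15 the difference was then −0.92. That share came from the lowest marker of each library. It was 5.77% and 5.87% of the MEF level in naïve P5 and 2.97% and 2.615% in primed P5. At P15 it was 6.61% and 6.30% in naïve and 2.685% and 2.51% in primed libraries. With the median share taken off, no P5 value was left and the P15 value rested on primed libraries at 0 counts.

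*Ccnd3* encodes cyclin D3, and it was lower in primed cells at both passages. Its levels were 198 and 207 CPM in naïve P5, 133 and 128 in primed P5, 239 and 238 in naïve P15, and 187 and 178 in primed P15. The log2 difference was −0.60 ± 0.04 at P5 (edgeR adjusted p = 6.99e-14) and −0.40 ± 0.06 at P15 (adjusted p = 3.13e-07). The same call was made under each of the alternatives that kept all libraries at both passages. *Ccnd3* shares 361 exon bases with *Bysl* on the opposite strand, which had 788 to 1685 counts per library.

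Levels of different D cyclins were compared as CPM per kilobase of annotated exon. Summed over the 3 genes, the naïve P5 libraries had 90.3 and 89.4 CPM per kb, primed P5 69.1 and 67.8, naïve P15 121 and 118, and primed P15 114 and 110. *Ccnd1* made up 54.3% and 53.8% of that sum in naïve P5, 58.0% and 57.6% in primed P5, 48.1% in both naïve P15 libraries, and 64.9% and 65.0% in primed P15. It was the largest of the 3 shares in all 8 naïve and primed libraries. The *Ccnd2* share was 20.7% and 19.9% in naïve P5 and 20.2% and 20.9% in primed P5, but 29.5% and 28.9% in naïve P15 against 16.3% and 16.6% in primed P15. In MEFs the order was different, with 71.5% *Ccnd2*, 15.6% *Ccnd3* and 12.9% *Ccnd1*. No feeder share was taken off these sums and shares. Feeder RNA at the median marker share would be 63.3% and 72.4% of the *Ccnd2* level in naïve P15. In the other naïve and primed libraries it would be 101% to 145%. How far the *Ccnd2* shares reflect feeder RNA was not tested. With the length of the longest transcript in place of all exons, *Ccnd1* was still the largest share in the 4 pluripotent groups, but *Ccnd3* (33.2%) passed *Ccnd2* (27.9%) in naïve P15.

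**Figure D2:**
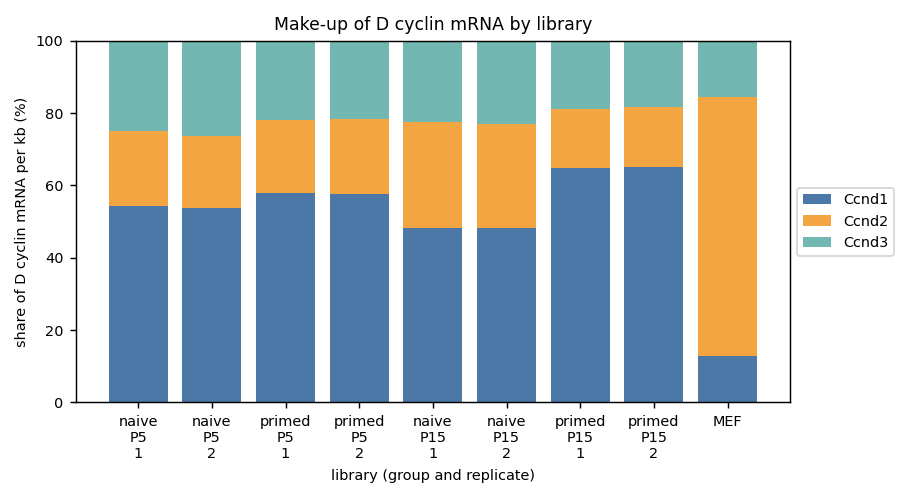
Share (%) of *Ccnd1*, *Ccnd2* and *Ccnd3* in the summed D cyclin level per kilobase of exon, 1 stacked bar per library. No feeder share was taken off. *Ccnd1* makes up 64.9% and 65.0% in primed P15 and 12.9% in MEFs, where *Ccnd2* makes up 71.5%.

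*Ccne1* encodes cyclin E1, the partner of CDK2 at the entry into S phase. Its levels were 237 and 234 CPM in naïve P5 and 60.1 and 59.6 in primed P5. At P15 they were 308 and 288 CPM in naïve and 91.0 and 87.3 in primed cells. Every naïve library was thus above every primed one. Primed cells were 3.84-fold lower at P5 (log2 difference −1.94 ± 0.04, edgeR adjusted p = 1.26e-25) and 3.37-fold lower at P15 (−1.75 ± 0.06, adjusted p = 7.11e-24). The MEF library was at 32.0 CPM, so that feeder RNA at the median marker share would be 2.14% to 8.80% of the *Ccne1* level of a library.

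*Ccne2*, which encodes the paralog cyclin E2, was far less abundant. It was at 15.3 and 18.9 CPM in naïve P5, 13.7 and 13.3 in primed P5, 18.9 and 17.1 in naïve P15, and 13.9 and 15.2 in primed P15. The primed libraries were below the naïve ones at each passage, but the differences of −0.31 ± 0.11 in P5 (edgeR adjusted p = 0.0175) and −0.31 ± 0.12 in P15 (adjusted p = 0.0262) did not pass the threshold. Without replicate 1 of naïve P5 the P5 difference was −0.48 and was called (adjusted p = 0.000306). *Ccne2* shares 609 exon bases with *Ints8* on the opposite strand, which had 815 to 1253 counts. Per kilobase, *Ccne1* was 20.4 and 16.3 times *Ccne2* in naïve P5, 5.76 and 5.88 times in primed P5, 21.4 and 22.1 times in naïve P15, and 8.57 and 7.53 times in primed P15.

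*Cdkn2b* encodes p15INK4b, an inhibitor of CDK4 and CDK6 that is known to be induced by TGF-β. It had the largest difference between the states among the 10 members at P5. Its levels were 12.9 and 13.4 CPM in naïve P5 and 77.5 and 84.4 in primed P5. At P15 they were 24.3 and 19.95 CPM in naïve and 72.8 and 70.7 in primed cells. All primed libraries were above all naïve ones, by 6.29-fold at P5 (log2 difference 2.65 ± 0.07, edgeR adjusted p = 2.15e-23) and 3.23-fold at P15 (1.69 ± 0.09, adjusted p = 1.22e-18). MEFs had 66.6 CPM, and the naïve groups were at 19.7% (P5) and 33.2% (P15) of that level, while the primed groups were at 121% and 108%. Naïve P5 was near the median fibroblast marker share (17.2% and 17.6%), and naïve P15 was above it (20.7% and 22.4%). Feeder RNA at that share would be 89.15% and 87.3% of the *Cdkn2b* level in naïve P5 and 56.6% and 74.7% in naïve P15. With the median marker share taken off, the difference was 5.53 at P5 and 2.91 at P15, and with the lowest share 3.07 and 1.91. The lowest share was larger in naïve than in primed libraries at both passages.

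*Cdkn2a*, next to *Cdkn2b* on chromosome 4, encodes p16INK4a and, from its upstream start, p19ARF, which acts on the p53 pathway. The counts sum both kinds of transcript. They came to 12.2 and 13.5 CPM in naïve P5, 20.5 and 21.1 in primed P5, 15.4 and 19.8 in naïve P15, and 36.2 and 33.5 in primed P15, and the states did not overlap at either passage. Primed cells were 1.65-fold higher at P5 (log2 difference 0.72 ± 0.10, edgeR adjusted p = 3.36e-07) and 1.96-fold higher at P15 (0.97 ± 0.11, adjusted p = 1.001e-09). In MEFs it was at 13.7 CPM, and feeder RNA at the median marker share would be 9.14% to 19.3% of its level.

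*Cdkn2c*, encoding p18INK4c, was the least abundant member per kilobase in the 4 pluripotent groups. It had 55 to 90 counts in each naïve or primed library and 678 in MEFs. It was at 3.38 and 2.72 CPM in naïve P5, 3.38 and 4.44 in primed P5, 5.45 and 3.52 in naïve P15, and 5.16 and 4.72 in primed P15, and the states overlapped at both passages. The log2 difference was 0.38 (95% interval −0.08 to 0.85) at P5 and 0.14 (−0.33 to 0.61) at P15, and neither was called. Feeder RNA at the median marker share would amount to 91.4% to 186% of the *Cdkn2c* level. With the lowest share taken off, the P5 difference was 1.13 and was called (edgeR adjusted p = 0.00393).

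*Cdkn1b* encodes p27KIP1, a brake on cyclin E with CDK2. Its levels were 46.9 and 44.9 CPM in naïve P5, 70.9 and 77.0 in primed P5, 46.7 and 40.4 in naïve P15, and 50.4 and 58.6 in primed P15. Primed libraries were above the naïve ones at each passage, widely at P5 and narrowly at P15. The log2 difference was 0.72 ± 0.06 at P5 (edgeR adjusted p = 3.79e-12) and 0.31 ± 0.09 at P15 (adjusted p = 0.00181). The P15 call was lost without replicate 2 of naïve P15 (0.18, adjusted p = 0.112), without replicate 2 of primed P15 (0.23, adjusted p = 0.0420), with DESeq2's Wald test (adjusted p = 0.0251) and with the median marker share taken off (0.47, adjusted p = 0.0253).

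*Rb1* encodes the retinoblastoma protein, the target of these kinases. It was at 30.6 and 29.5 CPM in naïve P5, 31.0 and 32.5 in primed P5, 22.9 and 23.5 in naïve P15, and 18.0 and 22.0 in primed P15. The difference between the states was 0.11 (95% interval −0.05 to 0.26) at P5 and −0.22 (−0.45 to 0.01) at P15 and was not called at either. With library size alone the P5 difference was 0.31 and was called (edgeR adjusted p = 0.000714), on a scale where the median of all genes was 0.21. *Rb1* had 311 to 624 counts per library. It shares exon bases on the opposite strand with *Rcbtb2* (488 bases, 399 to 1630 counts) and *Lpar6* (408 bases, 138 to 554 counts).

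**Figure D3:**
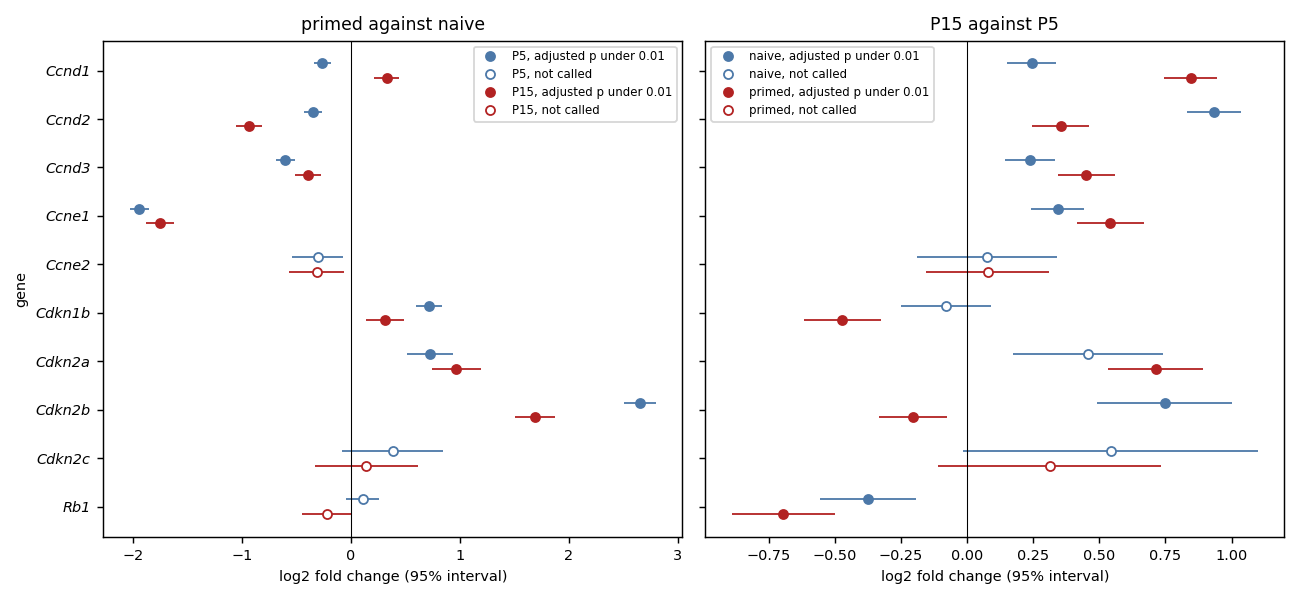
Log2 fold changes with 95% intervals from edgeR for the 10 genes, primed against naïve at P5 and P15 (left) and P15 against P5 in naïve and primed cells (right), with filled dots for an adjusted p under 0.01. *Cdkn2b* (2.65 at P5) and *Ccne1* (−1.94 at P5) are farthest from 0 on the left, and *Ccnd1* changes side between P5 and P15.

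Ordered per kilobase, *Ccne1* led in naïve P5 with 88.4 ± 0.69 CPM per kb (SD, n = 2), followed by *Ccnd1* at 48.5 ± 0.66, *Ccnd3* at 23.1 ± 0.68, *Ccnd2* at 18.3 ± 0.64, *Cdkn2a* at 10.98 ± 0.77, *Cdkn1b* at 10.1 ± 0.31 and *Cdkn2b* at 9.46 ± 0.27. *Rb1* (5.002 ± 0.13) and *Ccne2* (4.89 ± 0.74) overlapped, and *Cdkn2c* was last at 1.14 ± 0.17. In primed P5 the order began with *Cdkn2b* at 58.2 ± 3.48, then *Ccnd1* at 39.5 ± 0.73, *Ccne1* at 22.5 ± 0.13 and *Cdkn2a* at 17.8 ± 0.33. An INK4 inhibitor transcript thus stood first in primed P5, where it had been seventh in naïve P5. Naïve P15 again began with *Ccne1* at 112 ± 5.40 and *Ccnd1* at 57.5 ± 1.32, and there *Cdkn2b* (15.9 ± 2.21) and *Cdkn2a* (15 ± 2.64) overlapped. In primed P15 the first was *Ccnd1* at 72.6 ± 1.496, followed by *Cdkn2b* at 51.6 ± 1.07 and *Ccne1* at 33.5 ± 0.997. *Cdkn2b* per kilobase was 0.104 and 0.110 times *Ccne1* in naïve P5 and 2.47 and 2.71 times in primed P5. At P15 this ratio was 0.151 and 0.133 in naïve and 1.53 and 1.55 in primed cells, and 3.98 in MEFs. The order and the ratios rest on annotated exon length, and the length of the longest transcript was not tested for them. No feeder share was taken off either. Feeder RNA at the median marker share would be 89.15% and 87.3% of the *Cdkn2b* level in naïve P5 and 12.85% and 11.1% in primed P5. *Ccnd3* has 8775 exon bases and a longest transcript of 3858, *Ccne1* 2662 and 2000, and *Cdkn2b* 1390 in both.

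With passage, naïve cells gained *Ccnd2* most, and in both states all 3 D cyclins and *Ccne1* were higher at P15 than at P5. In naïve cells 5 members were higher and 1 lower, where 4.21% of 15683 genes were called higher and 5.01% lower. In primed cells 5 were higher and 3 lower, where 24.3% of 15957 genes were called higher and 22.8% lower. These comparisons use the same libraries as the comparisons of states, so they are further views of the values given above. Fibroblast markers moved with passage as well, with 16 of 30 higher and 2 lower in naïve cells and 24 higher and 1 lower in primed cells. Their part in these results was not tested beyond taking a marker share off.

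*Ccnd2* was 1.91-fold higher in naïve P15 than in naïve P5 (log2 difference 0.93 ± 0.05, edgeR adjusted p = 3.66e-08) and 0.35 ± 0.05 higher on the log2 scale in primed cells (adjusted p = 1.73e-06). With the lowest marker share taken off, these differences were 1.24 and 0.46. With the median share taken off, the naïve P5 libraries and all primed libraries were at 0 counts, so that no size could be given. *Ccnd1* was higher by 0.24 ± 0.04 in naïve (adjusted p = 0.00178) and by 0.85 ± 0.05 in primed cells (adjusted p = 3.46e-14). The gain of *Ccnd3* was 0.24 in naïve and 0.45 in primed cells, and that of *Ccne1* was 0.34 and 0.54. *Ccnd1* and *Ccnd3* in naïve cells were not called when the low-count filter was left out (adjusted p = 0.0157 and 0.0201), and each lost its call without 1 naïve P5 library, *Ccnd1* without replicate 2 (adjusted p = 0.0198) and *Ccnd3* without replicate 1 (adjusted p = 0.0429).

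Among the inhibitors, *Cdkn2b* moved in opposite directions, 0.75 ± 0.12 higher in naïve P15 (edgeR adjusted p = 0.000796) and lower by −0.20 ± 0.06 in primed P15 (adjusted p = 0.00675). The primed value lost its call without replicate 2 of primed P5 (−0.16, adjusted p = 0.115), without replicate 2 of primed P15 (−0.18, adjusted p = 0.0134), with DESeq2's Wald test (−0.21, adjusted p = 0.0298), with the median marker share taken off (adjusted p = 0.0338), without the low-count filter (adjusted p = 0.0200) and in the fit of all 8 libraries (adjusted p = 0.0120). The naïve value lost its call without the low-count filter (adjusted p = 0.01498) and was 2.41 with the median marker share taken off. *Cdkn1b* was lower in primed P15 than in primed P5 (−0.47 ± 0.07, adjusted p = 2.50e-06), and its naïve libraries overlapped between passages. *Cdkn2a* was 0.71 ± 0.09 higher in primed P15 (adjusted p = 8.44e-08), and in naïve cells its difference of 0.46 ± 0.13 was not called (adjusted p = 0.0289). That naïve difference was called without replicate 1 of naïve P15 (0.62, adjusted p = 0.00584) and in the fit of all 8 libraries (adjusted p = 0.00575).

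*Rb1* was lower at P15 in both states, by −0.69 ± 0.10 in primed (edgeR adjusted p = 5.92e-07) and −0.37 ± 0.08 in naïve cells (adjusted p = 0.00825). The naïve call was lost on leaving out any 1 of the 4 libraries (adjusted p = 0.0120 to 0.0341), with the difference between −0.35 and −0.41. It was also lost with DESeq2's Wald test (adjusted p = 0.0415), without the low-count filter (adjusted p = 0.0327) and with the median or the lowest marker share taken off (adjusted p = 0.0337 and 0.0124). *Ccne2* and *Cdkn2c* were called with passage in neither state.

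Whether the primed-minus-naïve difference itself changed between P5 and P15 was tested on all 8 libraries other than the MEF library. The log2 difference (primed minus naïve, with its sign) was higher at P15 than at P5 for 1 member and lower for 3, where 13.3% of 16926 genes were called higher and 10.8% lower. *Ccnd1* was the member whose difference rose, by 0.61 ± 0.06 (edgeR adjusted p = 4.38e-09). Lower values at P15 were found for *Cdkn2b* (−0.94 ± 0.12, adjusted p = 2.81e-07), *Ccnd2* (−0.57 ± 0.07, adjusted p = 5.33e-08) and *Cdkn1b* (−0.39 ± 0.11, adjusted p = 0.00603). For *Cdkn2b* and *Cdkn1b* this was a smaller excess in primed cells, and for *Ccnd2* a larger deficit. For *Ccnd2* the call was lost with the median marker share taken off, where all libraries but those of naïve P15 were at 0 counts. The *Cdkn2b* value was −2.59 with that share taken off. For *Cdkn1b* the call was lost with DESeq2's Wald test (adjusted p = 0.0246), with either marker share taken off (adjusted p = 0.0181 and 0.0799) and in 5 of the 8 single-library omissions, with adjusted p of 0.0111 to 0.0629 in those 5 (without replicate 1 of naïve P5, replicate 2 of naïve P5, replicate 2 of primed P5, replicate 1 of naïve P15 or replicate 1 of primed P15). *Ccne1* (0.21, adjusted p = 0.0287) and *Ccnd3* (0.22, adjusted p = 0.0121) did not pass the threshold, though *Ccnd3* was called without the low-count filter (0.25, adjusted p = 0.00418) and without replicate 2 of primed P15 (0.26, adjusted p = 0.00466).

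**Figure D4:**
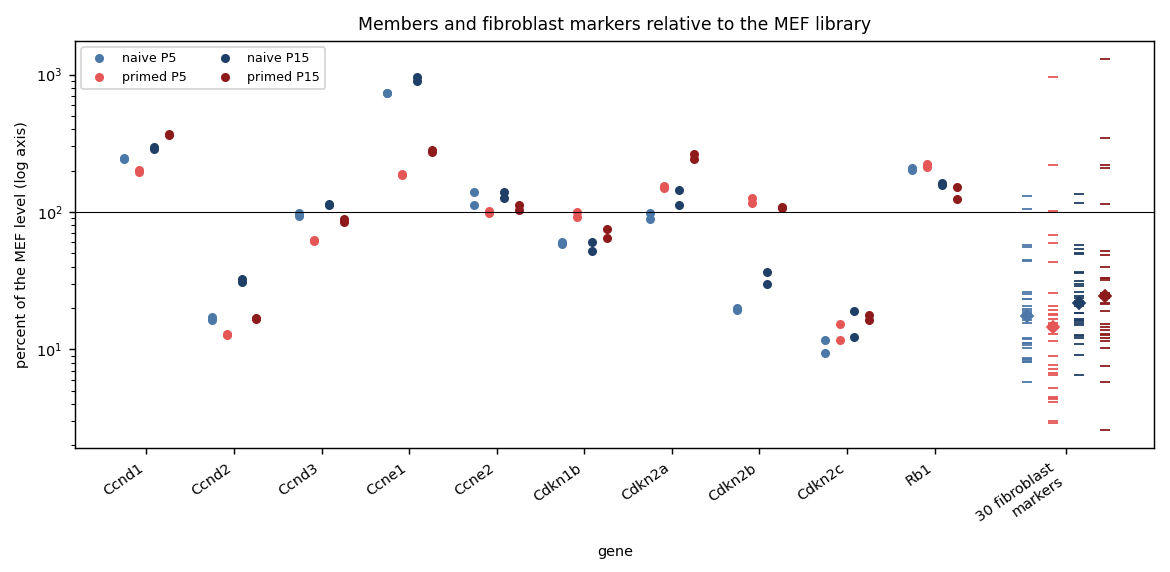
Level of each of the 10 genes in every naïve and primed library as a percent of its level in the MEF library (log axis), beside the same measure for 30 fibroblast markers (dashes for markers, diamonds for their median, both on group means). Group means of *Ccnd2* are 12.8% to 31.8% and those of *Cdkn2c* 10.6% to 17.1%, and single markers lie on both sides of 100% in every group.

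Of the direct partners, *Cdk4* was at 467 and 457 CPM in naïve P5, 360 and 361 in primed P5, 496 and 443 in naïve P15, and 544 and 538 in primed P15. Like *Ccnd1*, it was lower in primed cells at P5 (log2 difference −0.33 ± 0.03, edgeR adjusted p = 9.56e-10) and higher at P15 (0.19 ± 0.06, adjusted p = 0.00377). The change of the difference was 0.54 ± 0.06 (adjusted p = 6.56e-08). The P15 call was lost without replicate 2 of naïve P15 (0.09, adjusted p = 0.317), with the lowest marker share taken off (0.17, adjusted p = 0.0172) and with DESeq2's Wald test (0.19, adjusted p = 0.01045). *Cdk6*, the other D cyclin partner, was at 56.5 and 59.6 CPM in naïve P5, 78.1 and 72.9 in primed P5, 58.3 and 57.4 in naïve P15, and 116 and 120 in primed P15. It was higher in primed cells by 0.41 ± 0.05 at P5 (edgeR adjusted p = 1.14e-07) and 1.02 ± 0.07 at P15 (adjusted p = 1.13e-15), and the difference grew by 0.63 ± 0.09 (adjusted p = 7.64e-07). *Cdk2*, the partner of the E cyclins, was lower in primed cells by a small margin, −0.16 at P5 (edgeR adjusted p = 0.00807) and −0.21 at P15 (0.00998), and each call was lost in most of the alternatives.

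The inhibitor paralogs did not share a direction. *Cdkn1c*, encoding p57KIP2, was at 30.1 and 27.3 CPM in naïve P5, 73.4 and 73.2 in primed P5, 34.9 and 39.7 in naïve P15, and 95.5 and 101 in primed P15, and its log2 difference was 1.38 ± 0.06 at P5 and 1.39 ± 0.08 at P15 (edgeR adjusted p = 5.43e-18 and 3.67e-18). MEFs had 403 CPM of *Cdkn1c*. It was at 7.13% of the MEF level in naïve P5, 18.2% in primed P5, 9.26% in naïve P15 and 24.4% in primed P15. Both naïve groups thus lay below the fibroblast marker medians (17.2% and 17.6% at P5, 20.7% and 22.4% at P15). Primed P15 was near its medians (24.5% and 24.0%), and primed P5 was above them (14.96% and 14.1%). The part of feeder RNA in the *Cdkn1c* difference was not tested beyond taking a marker share off. *Cdkn1a*, encoding p21CIP1, was lower in primed cells at P5 (−0.32 ± 0.03, adjusted p = 1.83e-09) and not called at P15 (−0.10 ± 0.06, adjusted p = 0.0955), and the difference between passages was 0.24 ± 0.06 (adjusted p = 0.00225). That last call was lost with library size alone (adjusted p = 0.116), without replicate 2 of naïve P5 (0.0249) and without either primed P5 library (0.0496 and 0.0261). *Cdkn2d*, encoding p19INK4d, was not called at P5 (0.14, adjusted p = 0.329) and higher at P15 (0.45, adjusted p = 0.00252). The P15 call for *Cdkn2d* was lost without replicate 1 of naïve P15 (adjusted p = 0.0312), without replicate 2 of primed P15 (adjusted p = 0.0220) and with DESeq2's Wald test (adjusted p = 0.0324).

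Downstream of the members, the genes for S phase entry were lower in primed cells. Of 20 such genes, 20 were called lower at P5 and 17 at P15 (against 31.1% and 28.4% of all genes tested), none was called higher at either passage, and their median log2 difference was −0.75 at P5 and −0.52 at P15. *Pola1*, the catalytic subunit of DNA polymerase alpha, was −1.37 at P5 and −1.20 at P15, and *Cdt1*, a licensing factor of replication origins, was −1.04 and −1.33. G2/M genes were lower in 21 of 25 and higher in 2 at P5, and lower in 17 and higher in 1 at P15, with medians of −0.39 and −0.33, where 31.2% (P5) and 28.2% (P15) of all genes were called higher. *Ccnf*, encoding cyclin F, was −0.82 and −0.84, and *Hmmr*, a spindle protein gene, was −0.63 and −0.96. The signed difference was higher at P15, that is, a smaller deficit in primed cells, for 13 of the 20 S phase genes and lower for 1, where 13.3% of all genes were called higher and 10.8% lower.

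Of 12 pocket protein and E2F genes, 3 were called higher and 5 lower at P5 and 4 higher and 6 lower at P15. The shares over all genes were 31.2% higher and 31.1% lower at P5, and 28.2% and 28.4% at P15. *E2f1*, an activator of S phase genes, was lower in primed cells (−0.89 at P5 and −0.67 at P15), and *E2f5*, a repressor-type E2F, was higher (0.84 and 1.07). Among 11 genes for the turnover or activation of G1 regulators, 1 was higher and 7 lower at P5, and 2 higher and 6 lower at P15, beside those same shares. *Cdc25a*, a phosphatase that activates CDK2, was lower (−0.50 and −0.59), and *Fbxo4*, an F-box gene, was higher (0.75 and 0.81), though its P5 call was lost without replicate 2 of primed P5 (edgeR adjusted p = 0.0300) and with DESeq2's Wald test (adjusted p = 0.01046).

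**Figure D5:**
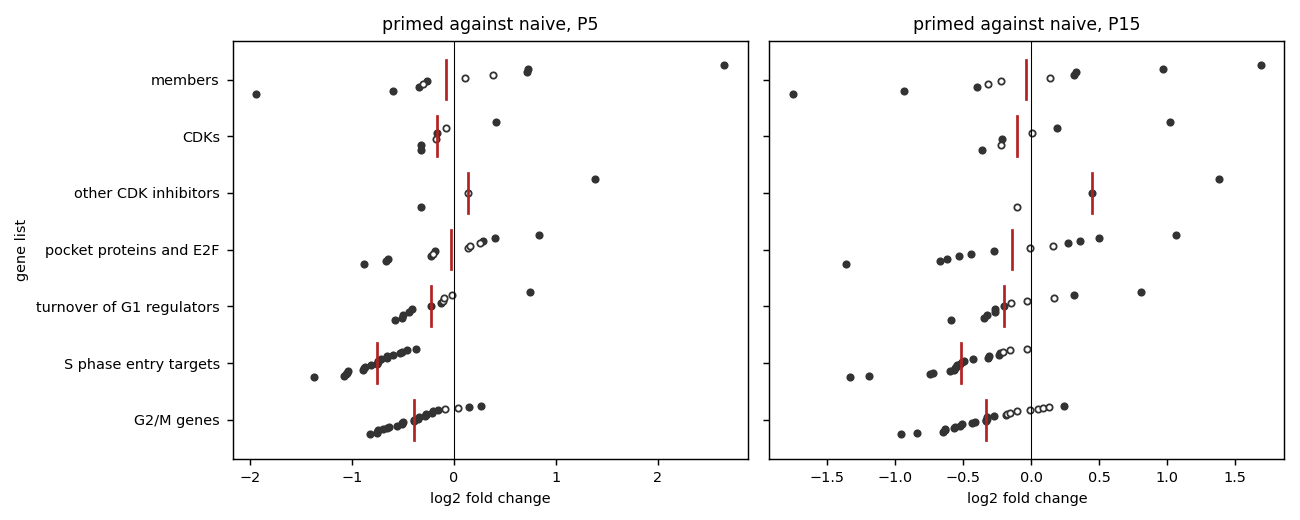
Log2 fold changes of primed against naïve cells at P5 (left) and P15 (right) for the genes of each list, 1 dot per gene, filled where the adjusted p is under 0.01, with red bars for list medians. The S phase list lies below 0 as a whole, with medians of −0.75 and −0.52, while the 10 members spread to both sides.

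The genes whose levels were most like the most variable members were sought over the 8 naïve and primed libraries, as a description that reflects mainly the gap between states. Among 10000 genes, *Hist1h1c* (Pearson r = 0.997), *Farp1* (0.995) and *Cdc42ep1* (0.993) were nearest to *Cdkn2b*. *Psmd7* (r = 0.9995), *Tma16* (0.999) and *Ung* (0.998) were nearest to *Ccne1*. The 8 libraries fall into 4 groups, so such values arise among any genes that share the order of group means.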

How the data were processed

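Libraries from poly(A) RNA were analysed for both pluripotent states at both passages and for MEFs. The authors trimmed reads with Cutadapt, aligned them with HISAT2 to mm10 and used featureCounts to assign reads to Ensembl genes. What they deposited are unnormalised counts, and the submitters' processing notes also name DESeq2. The annotation release, the strand setting and the handling of reads with several alignments are not given in the sources used here, and the library kit does not mark strand. Of 54232 gene IDs, 54079 had an entry in GENCODE M21 (153 did not), which gave names, coordinates and exon lengths, and 92 spike-in entries with 0 counts were left out.

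Groups followed the sample titles. Genes with at least 10 counts in at least 2 libraries of a fit were tested with edgeR 4.0.16 (R 4.3.3, limma 3.58.1) by the quasi-likelihood test after TMM scaling, with Benjamini-Hochberg adjustment over all genes tested and a call at an adjusted p under 0.01. Each comparison was fitted on its own 4 libraries, and the change of the state difference between passages on 8. The MEF library entered no fit. CPM were scaled by TMM over 9 libraries. The code was tested on simulated data. DESeq2 1.42.0 was an alternative, and the others are given below with their effect. Promoter windows came from RefSeq (GRCm38.p6).

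The 10 members and all gene lists were chosen with earlier results of these data known. Named besides were *Cdk2*, *Cdk4*, *Cdk6* and 3 other inhibitors, the 2 genes of each further pathway list with the largest mean change among those called in the same direction at both passages, and the 3 genes nearest by correlation of log2(CPM + 1), at a mean of at least 10 CPM, to the 2 members with the widest range of group means. The feeder alternatives used the median or lowest ratio of 30 fibroblast markers to their MEF level in each library. That ratio, times the MEF level of each gene, was taken off the library's counts. The lowest marker was *Col3a1* in naïve P5, *Col1a1* or *Fap* in primed P5, *Lum* in naïve P15 and *Acta2* in primed P15. Figures were drawn with matplotlib 3.10.9.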

Additional observations from a re-analysis of the deposited data

Results flagged for a closer look

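The difference between primed and naïve cells changed with passage for 4 members and 3 partner genes by the interaction test in edgeR (adjusted p under 0.01). The log2 change of the primed-minus-naïve difference from P5 to P15 was 0.607 for *Ccnd1*, −0.573 for *Ccnd2*, −0.386 for *Cdkn1b* and −0.944 for *Cdkn2b*. For the partners it was 0.537 for *Cdk4*, 0.626 for *Cdk6* and 0.236 for *Cdkn1a*. Of these 7, *Ccnd1* and *Cdk4* were called in opposite directions at the 2 passages. The P5 call of *Ccnd1* was lost with library size alone, and the P15 call of *Cdk4* with the lowest feeder share taken off, DESeq2's Wald test, and without replicate 2 of naïve P15. The median fibroblast marker level relative to MEFs was lower in primed than in naïve cells at P5 and higher at P15, while their summed level was lower in primed cells at both, and the part of feeder RNA in these differences was not tested beyond taking a marker share off. Groups of 2 libraries are too small to test for a library that stands apart.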

How the results depend on the processing

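With the median feeder share taken off, *Ccnd2* at P5 and in primed cells with passage and *Cdkn2c* in every comparison had no value left. Both of those *Ccnd2* differences were called without that step, and none of these losses is counted here. Of 403 values that remained for the members under the alternatives that kept all libraries, 374 kept their direction and their side of the threshold. Among the 374 are, with that share taken off, *Ccnd2* at P15 and in naïve cells with passage. There the primed or the naïve P5 libraries were left without counts. Another 21 lost a call, 6 gained one and 2 turned direction, which were *Ccne2* in primed cells with passage (−0.054) and in the change of the state difference (−0.11), both with library size alone and not called. Of the partners under that scaling, *Cdk2* at P5 was 0.0402 and *Cdkn1a* at P15 was 0.0014. That scaling moved the median log2 fold change of all genes to 0.21 at P5, 0.10 at P15, −0.13 in primed cells with passage and −0.11 in the change of the state difference. The share of calls that were higher went from 50.1% to 65.8% at P5, from 51.5% to 34.2% in primed cells with passage and from 55.0% to 35.2% in the change of the state difference. For naïve cells with passage, 6 members and 1446 genes were called. Without the low-count filter these were 2 members and 551 genes, with the median feeder share taken off 865 genes, and with a replicate block 2783 genes. In the change of the state difference, 4 members were called, and 2 with the median feeder share taken off. Leaving out 1 library gave 7 to 8 members called at P5, 6 to 7 at P15, 4 to 6 in naïve and 7 to 8 in primed cells with passage, and 3 to 5 in the change of the state difference. A group left with 1 library was assumed to vary like the others. The values that turned direction in this way, none of them called, ranged from −0.18 to 0.456 for *Cdkn2c* at P15 and from −0.0639 to 0.321 for *Cdkn2d* at P5. In naïve cells with passage they were −0.0739 to 0.234 for *Ccne2* and −0.187 to 0.0331 for *Cdkn1b*, and in the change of the state difference −0.143 to 0.154 for *Ccne2* and −0.518 to 0.112 for *Cdkn2c*.

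The labels do not say that a replicate number marks a shared culture or day. Over 10001 genes, deviations of same-numbered replicates correlated at 0.161 (naïve) and 0.159 (primed) between the passages of a state and at −0.0993 to −0.19 between the states, so the numbers were not taken as a pairing. With the replicate block, 7 members were called at P5, 6 at P15, 7 in naïve and 8 in primed cells with passage, and 3 in the change of the state difference. *Cdkn1b* lost its call at P15 (adjusted p = 0.0131) and in the change of the state difference (0.0122), *Cdkn2a* in naïve cells gained one (0.00159), and *Cdk2* (0.0112 at P5, 0.0309 at P15) and *Cdk4* at P15 (0.0184) lost theirs. Crossed numbers, chosen after seeing the data, gave 5343 genes higher and 5332 lower at P5 and 4705 and 4772 at P15, with 8 and 7 members called. By longest transcript, the mean D cyclin shares in naïve P5, primed P5, naïve P15, primed P15 and MEFs were 43.4%, 47.6%, 38.9%, 55.1% and 10.3% for *Ccnd1*, 19.3%, 19.99%, 27.9%, 16.4% and 67.2% for *Ccnd2*, and 37.3%, 32.4%, 33.2%, 28.5% and 22.5% for *Ccnd3*. The causes were not tested.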
